A study of Mus musculus with 9 samples.

Results

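The genes described are 7 that are known to mark granule cells of the dentate gyrus: Prox1, Dsp, C1ql2, Tdo2, Calb1, Trpc6 and Lct. They were chosen by symbol from the 57180 genes of the deposited table, each symbol matched 1 gene, and all 7 passed the filter on low values (a mean of 10 normalized counts over the libraries). The tissue was whole hippocampus of 11-day-old C57BL6 mice. 4 mice (cKO, 3 males and 1 female) had a knockout of Slc38a3, the gene of the glutamine transporter SNAT3, that is selective for endothelial cells, and 5 (WT, 1 male and 4 females) were wild type. The sources used here name neither the Cre line nor the exons deleted, nor the litters of the mice. The comparison asks whether granule cell transcripts differ between mice with and without this knockout.

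Granule cells are the excitatory neurons of the dentate gyrus, the first relay of the hippocampal circuit. They receive input from the entorhinal cortex and send axons, the mossy fibres, to CA3 pyramidal cells. Unlike most neurons, they are largely born after birth in rodents, so that at this age mature and immature granule cells lie side by side. Prox1 is the transcription factor that fixes and maintains their identity. In whole tissue, fewer granule cells and less RNA per granule cell cannot be told apart, and several of the genes have other sources. Calb1 is also made by CA1 pyramidal cells and interneurons, Dsp by cells of the meninges, and Trpc6 by some vessel cells. Oligodendrocyte precursors also make some Prox1, so Prox1 in whole tissue is not a measure of granule cells alone.

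Promoter sequences were matched for 6 of the 7 genes in a RefSeq table on the GRCm38.p6 build. The 250 bases before the transcription start are shown, from 5′ to 3′ on the gene's strand, for Prox1 (chr1:190170828-190171077, minus strand, the first of its 2 starts in that table), for C1ql2 and Lct (chr1:120340332-120340581, plus strand, and chr1:128328319-128328568, minus strand), whose levels correlated most with that of Prox1 across libraries, and for Tdo2 (chr3:81975729-81975978, minus strand), which had the largest difference between the genotypes. Capitals mark CANNTG, the E-box letters that basic helix-loop-helix factors such as Neurod1 bind, which read the same on both strands.
Prox1: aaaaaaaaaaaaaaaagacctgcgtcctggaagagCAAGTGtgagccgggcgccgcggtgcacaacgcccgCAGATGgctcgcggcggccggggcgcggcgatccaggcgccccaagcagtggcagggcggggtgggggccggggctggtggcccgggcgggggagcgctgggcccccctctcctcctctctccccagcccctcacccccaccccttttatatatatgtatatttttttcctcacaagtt
C1ql2: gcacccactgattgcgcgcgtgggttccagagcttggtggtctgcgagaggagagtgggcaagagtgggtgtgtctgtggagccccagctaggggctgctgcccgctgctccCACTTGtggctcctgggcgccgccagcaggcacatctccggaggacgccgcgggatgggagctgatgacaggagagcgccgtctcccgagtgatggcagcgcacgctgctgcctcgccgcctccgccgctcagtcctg
Lct: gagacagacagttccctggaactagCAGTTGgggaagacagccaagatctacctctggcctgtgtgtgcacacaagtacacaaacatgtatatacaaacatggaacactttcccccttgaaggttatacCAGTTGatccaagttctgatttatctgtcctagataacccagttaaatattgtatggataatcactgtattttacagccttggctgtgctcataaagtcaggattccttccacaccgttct
Tdo2: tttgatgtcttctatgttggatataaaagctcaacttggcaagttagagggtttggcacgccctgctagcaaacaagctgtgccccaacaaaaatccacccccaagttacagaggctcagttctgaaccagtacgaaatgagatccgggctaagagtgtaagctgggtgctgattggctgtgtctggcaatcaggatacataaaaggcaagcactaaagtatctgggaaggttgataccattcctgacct
The bases after either Prox1 start were not found in a transcript of the gene, while those after the starts of the other matched genes were. The Prox1 window shown held 2 matches (CAAGTG and CAGATG), that of C1ql2 held 1 (CACTTG) and that of Lct held 2 (both CAGTTG). Tdo2 held 0, as did the windows not shown, those of Dsp, Trpc6 and the second Prox1 start. Of the 7 windows of these genes, 3 held a match. At least 1 such match was present in 66.2% of the 32851 windows of this length in the table, so a match describes these letters and marks no site.

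The values are normalized counts, gene counts that the authors divided by 1 size factor per library. Recovered reads came to between 30803135 and 34034530 in each library. Slc38a3 was at 308 to 405 normalized counts in the cKO libraries and at 1804 to 3514 in the WT libraries, without overlap. Libraries differed in markers of adjoining tissue: the sum over 7 choroid plexus markers ran from 595 to 33357 in cKO and from 604 to 44169 in WT, and the sum over 13 meningeal markers from 8292 to 10077 in cKO and from 5860 to 9762 in WT. No marker of either list was at 0 in all libraries. Replicate numbers are names and pair no mice.

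Levels between genes were compared per kilobase of exon. Prox1 led with 809 normalized counts per kilobase over the 9 libraries, followed by Calb1 (709), C1ql2 (258), Lct (116), Dsp (89.9), Trpc6 (51.5) and Tdo2 (40.8). The libraries of Prox1 (705 to 857 per kilobase) overlapped those of Calb1 (626 to 760), those of Lct (94.5 to 136) overlapped those of Dsp (67.3 to 110), and those of Trpc6 (44.7 to 56.9) overlapped those of Tdo2 (27.0 to 51.5). C1ql2 (223 to 306 per kilobase) stood apart from its neighbours on both sides.

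None of the 7 genes passed the test between cKO and WT, which was limma-trend with sex as a term and a Benjamini-Hochberg adjusted p under 0.05 over 17036 genes. Of all genes tested, 0.346% passed. An unadjusted p under 0.05 was reached by Tdo2 and Dsp, 2 of the 7, against 11.3% of all genes. The log2 fold change was above 0 in 5 of the 7, against 48.8% of all genes, and its median was 0.12, against -0.0034 over all genes. The 2 genotypes overlapped in all 7, where 6.29% of all genes did not overlap. On the recovered reads, DESeq2 called Tdo2 alone of the 7 and 1.49% of the genes it tested, and edgeR called 0 of the 7 and 0.335% of all genes. Without the sex term limma called 0 of the 7 and 1.27% of all genes.

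**Figure D1:**
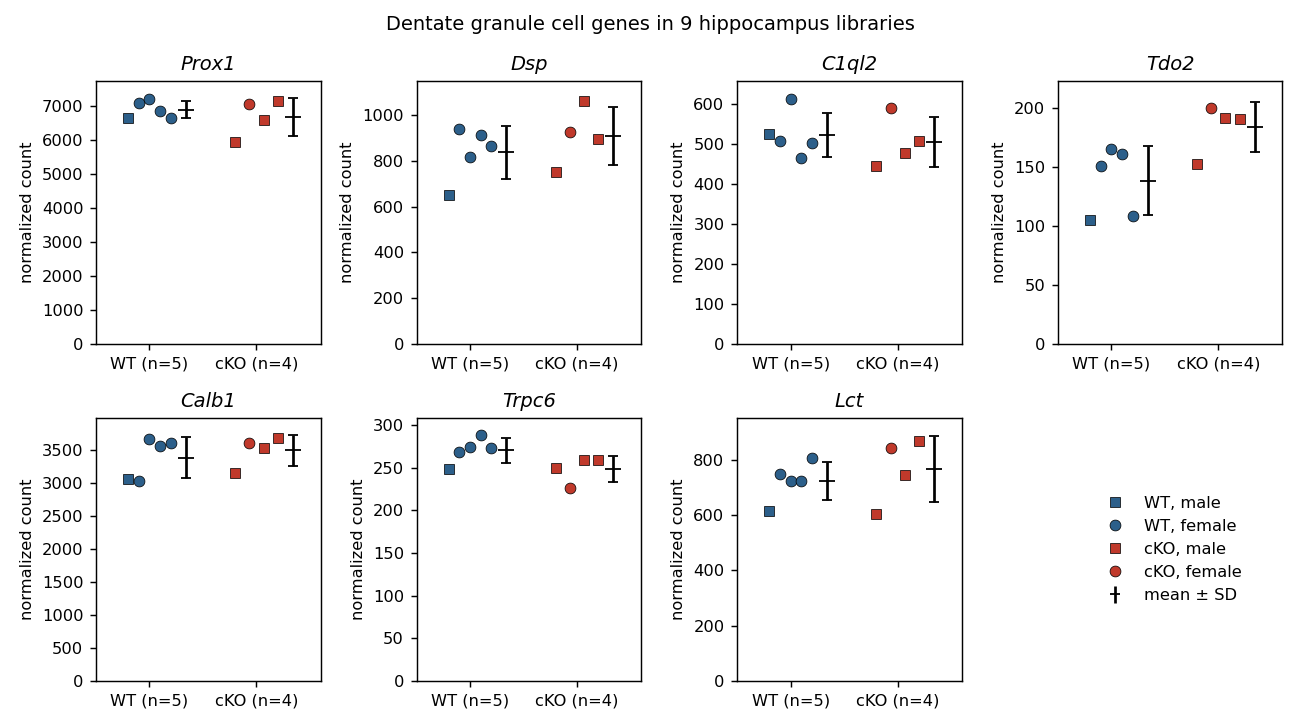
Normalized counts of the 7 genes in each library, 5 WT (blue) and 4 cKO (red), squares for males and circles for females, with the mean and SD of each group beside the points; every axis starts at 0. The genotypes overlap in every panel, and in Tdo2 the overlap is between the lowest cKO library (152) and the 2 highest WT libraries (161 and 165).

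Prox1 (ENSMUSG00000010175, chromosome 1, 189850231 to 189902911 in GRCm39), the identity factor, held 5918, 7039, 6582 and 7122 normalized counts in cKO replicates 1 to 4 and 6648, 7075, 7188, 6849.8 and 6640.1 in WT replicates 1 to 5. The lowest library and the second highest were both cKO, so the genotypes interleave. The cKO mean was 6665 ± 552 (SD, n = 4) against a WT mean of 6880.1 ± 248 (SD, n = 5). The log2 fold change, cKO over WT, came to -0.0022 with an SE of 0.0574 (adjusted p = 0.991 by limma) and a 95% interval of -0.13 to 0.12, so that these data leave room for a fold of 0.916 to 1.09. This was the narrowest interval of the 7.

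C1ql2 (ENSMUSG00000036907, chromosome 1, 120268311 to 120270903) encodes a secreted C1q-like protein that mossy fibres release at their synapses. It held 445, 591, 478 and 509 normalized counts in the cKO libraries and 527, 508, 612, 465 and 503 in the WT libraries. The highest and second highest libraries were WT replicate 3 and cKO replicate 2, both female, and the genotypes overlapped almost fully. Means came to 506 ± 62.6 in cKO (SD, n = 4) against 523 ± 54.7 in WT (SD, n = 5), with a log2 fold change of 0.028 ± 0.103 (limma adjusted p = 0.943, 95% interval -0.19 to 0.25). The direction was not stable: the ratio of the means was 0.968, and the log2 fold change was -0.049 with no sex term, -0.14 without cKO replicate 2 and 0.19 without WT replicate 1.

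Calb1 (ENSMUSG00000028222, chromosome 4, 15881263 to 15908064) encodes calbindin, a calcium-binding protein that granule cells gain as they mature. It was at 3155, 3617, 3540.15 and 3681 normalized counts in the cKO libraries and at 3065.5, 3033, 3674, 3559 and 3615 in the WT libraries. WT replicates 1 and 2 and cKO replicate 1 formed the low end, and the other 6 libraries lay close together. The cKO mean was 3498 ± 236 (SD, n = 4) against a WT mean of 3389 ± 314 (SD, n = 5), and the log2 fold change was 0.12 ± 0.0719 (limma adjusted p = 0.569, 95% interval -0.039 to 0.27).

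Trpc6 (ENSMUSG00000031997, chromosome 9, 8544142 to 8680742), a calcium-permeable cation channel gene, held 249.6, 226, 259 and 259 normalized counts in the cKO libraries and 248, 269, 274, 288 and 273 in the WT libraries. All cKO libraries lay below 4 of the 5 WT libraries, and WT replicate 1, the WT male, lay among them. Means came to 249 ± 15.6 in cKO (SD, n = 4) against 270.5 ± 14.4 in WT (SD, n = 5). The spread between libraries was about that of read counting alone, which gives an SD of 15.5 and 16.6 at these levels. The log2 fold change was -0.13 ± 0.0922 (limma adjusted p = 0.633, 95% interval -0.32 to 0.073), and the exact permutation test over the libraries, which has no sex term, gave a two-sided, unadjusted p of 0.0635. Without cKO replicate 2, the cKO female, the log2 fold change was 0.044.

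Dsp (ENSMUSG00000054889, chromosome 13, 38335269 to 38382553) encodes desmoplakin, which links desmosomes to intermediate filaments and in the dentate gyrus lies downstream of the factor Bcl11b. It held 751, 924, 1061 and 893 normalized counts in the cKO libraries and 650.2, 939.9, 816, 913 and 863 in the WT libraries. The highest library was cKO and the lowest WT, and the remaining 7 interleaved. The cKO mean was 907 ± 127 (SD, n = 4) against a WT mean of 836 ± 114 (SD, n = 5), and the log2 fold change was 0.26 ± 0.111 (limma unadjusted p = 0.0380, adjusted p = 0.410, 95% interval 0.016 to 0.50). It was 0.46 without cKO replicate 2 and 0.068 without WT replicate 1, the WT male and lowest library. The meningeal markers, whose cells also make Dsp, were higher in cKO in 11 of 13 genes by log2 fold change, none of which passed. A limma unadjusted p under 0.05 was reached by 5 of the 13 markers, against 11.3% of all genes. With their mean added to the fit, Dsp was at 0.28 ± 0.139.

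Lct (ENSMUSG00000026354, chromosome 1, 128212492 to 128256055), the gene of the intestinal enzyme lactase, serves as a marker of granule cells in the brain. It held 606, 842, 745 and 869 normalized counts in the cKO libraries and 614, 748, 723, 724 and 805 in the WT libraries. cKO replicate 1 and WT replicate 1, both male, were the lowest, and cKO replicates 4 and 2 the highest. Means came to 766 ± 119 in cKO (SD, n = 4) against 723 ± 69.3 in WT (SD, n = 5), and the log2 fold change was 0.21 ± 0.101 (limma adjusted p = 0.455, 95% interval -0.0081 to 0.43).

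Tdo2 (ENSMUSG00000028011, chromosome 3, 81864396 to 81883509) encodes tryptophan 2,3-dioxygenase, which opens the kynurenine route of tryptophan breakdown. It was at 152, 199.8, 192 and 190.5 normalized counts in the cKO libraries and at 105, 150.6, 165, 161 and 109 in the WT libraries. 3 of the 4 cKO libraries lay above all WT libraries, and the WT libraries themselves were split, with replicates 1 and 5 low. The cKO mean was 183 ± 21.3 (SD, n = 4) against a WT mean of 138 ± 29.1 (SD, n = 5), where read counting alone gives an SD of 13.3 and 11.8. Tdo2 differed most of the 7, by 1.52-fold with sex as a term (log2 fold change 0.60 ± 0.160, 95% interval 0.26 to 0.95, limma unadjusted p = 0.00217, adjusted p = 0.168). The ratio of the means was 1.33, and the exact permutation test, without a sex term, gave a two-sided p of 0.0635, where the smallest this design allows is 0.00794. DESeq2 on the recovered reads called it (log2 fold change 0.59, adjusted p = 0.0449), and over all alternatives the adjusted p ran from 0.0449 to 0.538. With each library left out in turn the log2 fold change of Tdo2 stayed between 0.47 and 0.75 and the limma adjusted p between 0.144 and 0.418.

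**Figure D2:**
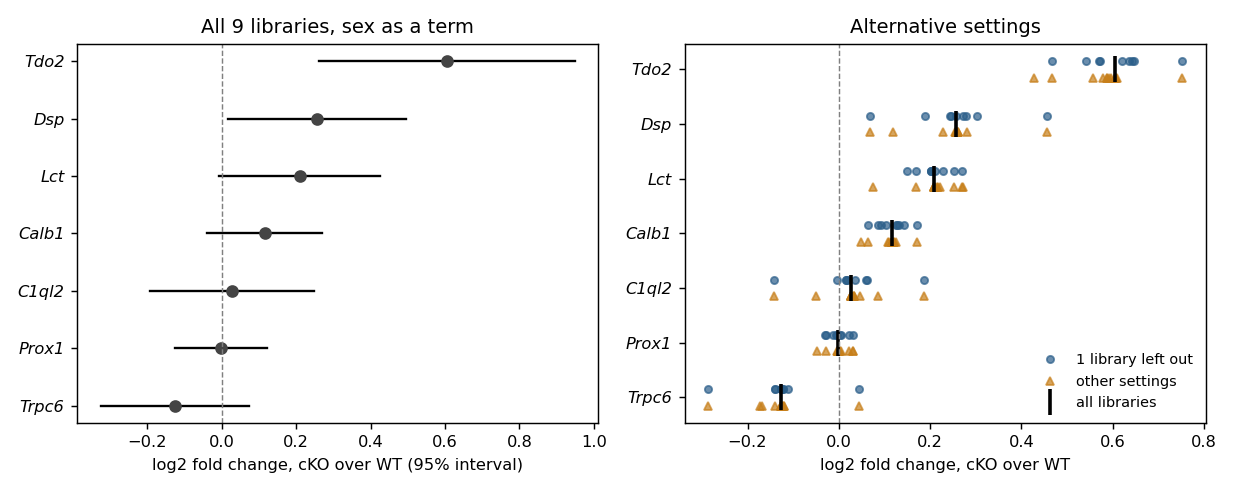
Log2 fold change of the 7 genes, cKO over WT, with its 95% interval from limma with sex as a term (left), and the same value with 1 library left out in turn (circles) and under the other settings (triangles, right), a black bar marking the value with all libraries. Tdo2 lies between 0.43 and 0.75 under every setting shown, while C1ql2, Prox1 and Trpc6 have values on both sides of 0.

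Sex was unevenly split between the genotypes, so each gene was also read within each sex. Tdo2 was the gene of the 7 in which every cKO library lay above every WT library of its sex: the cKO female held 199.8 normalized counts against 109 to 165 in the WT females, and the cKO males 152 to 192 against 105 in the WT male. Over all genes tested, 7.81% were ordered this way and 8.83% the opposite way. Trpc6 was lower in the cKO female (226) than in each WT female (269 to 288), and the cKO males (249.6 to 259) lay above the WT male (248). The interaction of sex and genotype, which rests on that female and that male, was -0.33 ± 0.166 for Trpc6 (limma unadjusted p = 0.0689), -0.39 ± 0.202 for Dsp (unadjusted p = 0.0770) and 0.33 ± 0.190 for C1ql2 (unadjusted p = 0.106). None of the 7 passed that test (0.00587% of all genes did), 0 had an unadjusted p under 0.05 (7.9% of all genes did) and the lowest adjusted p among them was 0.636.

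Females were higher than males in 6 of the 7 genes with genotype as a term, against 49.8% of all genes. None of the 7 passed (0.0528% of all genes did), and Lct and Dsp had an unadjusted p under 0.05, against 6.73% of all genes. The difference, females minus males on the log2 scale, was 0.25 ± 0.101 for Lct, whose means were 768 in females and 709 in males (limma adjusted p = 0.714), and 0.25 ± 0.111 for Dsp, with means of 891 and 839 (adjusted p = 0.739). For Tdo2 it was 0.32 ± 0.160 with the genotype term (adjusted p = 0.740), although the plain means were 157 in females and 159.7 in males, 3 of the 4 males being cKO. Males differed among themselves: in both Lct and Dsp the highest and the lowest library were male. For Lct these were cKO replicate 4 (869) and cKO replicate 1 (606), and for Dsp cKO replicate 3 (1061) and WT replicate 1 (650.2).

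The libraries were then compared across the 7 genes. WT replicate 1 held 1 of the 2 lowest values in 5 genes and cKO replicate 1 in 4, and neither held any of the 2 highest. WT replicate 3 held 1 of the 2 highest values in 4 genes, and cKO replicates 2 and 4 in 3 each. The mean deviation over the 7 genes from their means was -0.21 log2 units in WT replicate 1 and -0.15 in cKO replicate 1, and 0.11 in cKO replicate 2 and cKO replicate 4. Low and high libraries thus occurred in both genotypes. The 2 low ones were male, and so were cKO replicates 3 and 4, which lay above the means (0.075 and 0.11).

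Between the 7 genes, 17 of 21 pairs had a Pearson r above 0 over the 9 libraries, with a median r of 0.34. An exact permutation p under 0.05 was reached by 5 pairs and by 0 after Benjamini-Hochberg adjustment over the 21 pairs. These were Calb1 with Lct (r = 0.70, exact p = 0.0483, Spearman rho = 0.52, exact p = 0.162), Prox1 with C1ql2 (r = 0.69, exact p = 0.0383, rho = 0.73, exact p = 0.0311), Dsp with Lct (r = 0.68, exact p = 0.0406, rho = 0.57, exact p = 0.121), Prox1 with Lct (r = 0.67, exact p = 0.0492, rho = 0.40, exact p = 0.291) and Dsp with Tdo2 (r = 0.67, exact p = 0.0485, rho = 0.57, exact p = 0.121). All 5 had an adjusted p of 0.207 for r and 0.622 or more for rho. Without the 2 libraries farthest from the median of the first gene, r was 0.84 for Calb1 with Lct, 0.55 for Prox1 with Lct, 0.41 for Dsp with Tdo2, 0.38 for Prox1 with C1ql2 and -0.075 for Dsp with Lct, so that the last rests on cKO replicate 1 and WT replicate 1. After sex and genotype were removed, 18 of 21 pairs had an r above 0 (median 0.30). Without the 2 libraries farthest from the median of the first gene, 12 of 21 pairs had an r above 0 and 9 below, with a median of 0.20, so that the count of pairs above 0 rests in part on those libraries. Trpc6 took part in 3 of the 4 pairs with an r below 0, and Dsp with C1ql2 was the other (r = -0.077, exact p = 0.847).

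**Figure D3:**
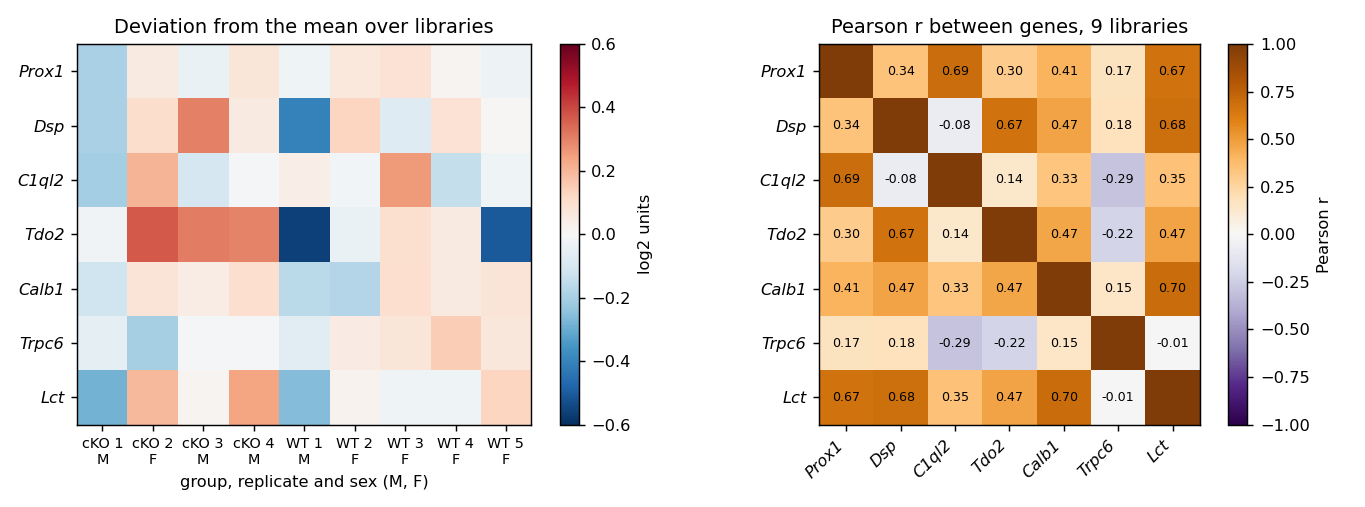
Deviation of each gene's log2 value from its mean over the 9 libraries (left, red above and blue below the mean) and Pearson r between the genes over the same libraries (right). cKO replicate 1 and WT replicate 1 are below the mean in every row except C1ql2 in WT replicate 1, and the largest r is 0.70 between Calb1 and Lct.

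Since Prox1 is the identity factor and its interval was narrow, the other genes were also set against Prox1 in the same library, a measure chosen after the values were seen. Of 7 ratios computed, those of the 6 other genes and of Pdyn, that of Tdo2 was 2.57, 2.84, 2.91 and 2.67% of the Prox1 normalized count in cKO replicates 1 to 4 and 1.58, 2.13, 2.30 and 2.35% in WT replicates 1 to 4, with 1.64% in WT replicate 5. The genotypes did not overlap, as in 2.93% of all genes set against Prox1. The difference in the log2 ratio was 0.48 (exact permutation p = 0.0238, two-sided, unadjusted, no sex term), and the exact p was 0.0536 without cKO replicate 2 or without cKO replicate 3. The ratio of C1ql2 was 7.59 ± 0.568% (SD) in the 4 cKO libraries and 7.60 ± 0.668% (SD) in the 5 WT libraries, with a difference on the log2 scale of -0.00054 (exact permutation p = 0.992). The ratios of Dsp, Calb1, Trpc6 and Lct overlapped between the genotypes, with exact permutation p of 0.198 to 0.452.

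**Figure D4:**
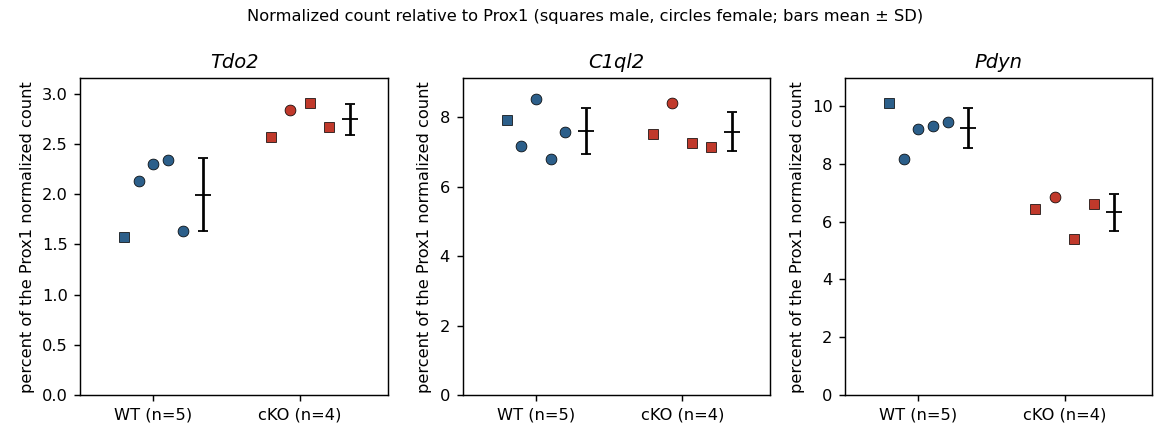
Normalized counts of Tdo2, C1ql2 and Pdyn as a percent of the Prox1 normalized count in the same library, squares for males and circles for females, with the mean and SD of each genotype; every axis starts at 0 and has its own scale. The cKO libraries lie above all WT libraries for Tdo2, below all for Pdyn and among them for C1ql2.

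Other genes of granule cells and their synapses were read from lists. Among 17 genes of the mossy fibre synapse, 1 fell and 16 did not pass (median log2 fold change -0.050), where 0.346% of all genes passed. The gene that fell was Pdyn, the precursor of the opioid peptide dynorphin, which granule cells store in their mossy fibres. Pdyn was at 422 ± 63.4 normalized counts (SD) in the 4 cKO libraries and 635 ± 36.6 (SD) in the 5 WT libraries, a log2 fold change of -0.56 ± 0.106 (limma adjusted p = 0.0420). As a percent of Prox1 it was 6.32 ± 0.631 in cKO and 9.24 ± 0.697 in WT (exact permutation p = 0.00794, the smallest this design allows). The genotypes did not overlap in this ratio, as in 2.93% of all genes set against Prox1. The undivided values of Pdyn gave the same exact permutation p, so the ratio adds no separate support for Pdyn. Its call held without cKO replicate 4 (adjusted p = 0.0262) and was lost without each of the other 8 libraries (adjusted p of 0.0571 to 0.262), while the log2 fold change stayed between -0.75 and -0.37. It was also lost with TMM scaling (adjusted p = 0.0506) and with the mean of choroid plexus, pyramidal cell or meningeal genes as a covariate (adjusted p = 0.0600, 0.119 and 0.403), where the log2 fold change was -0.55, -0.55, -0.48 and -0.47 in that order. C1ql3, the close relative of C1ql2 (it and the kainate receptor genes were named for that link, with their values known), had a log2 fold change of 0.068 (adjusted p = 0.686). The kainate receptor genes on the CA3 side, which C1ql proteins help to place, were at 0.13 for Grik5 (adjusted p = 0.423), -0.080 for Grik4 (adjusted p = 0.548) and 0.012 for Grik2 (adjusted p = 0.961), all by limma. Nectin3 was at -0.15 (adjusted p = 0.411) and Gpr158 at -0.16 (adjusted p = 0.448).

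Of 18 other genes enriched in granule cells, 0 passed, 11 had a log2 fold change above 0 and the median was 0.032. The genes of smallest p were Plk5, at 71.2 ± 13.2 normalized counts in cKO and 53.8 ± 5.46 in WT (limma adjusted p = 0.425), Dgkh, a diacylglycerol kinase gene (log2 fold change -0.20, adjusted p = 0.443), and Stxbp6 (-0.097, adjusted p = 0.540). Of 14 genes of neuroblasts and immature granule neurons, 0 passed and 4 had an unadjusted p under 0.05, where 11.3% of all genes did (median log2 fold change -0.050). Of the 4, Calb2 was above 0 and Camk4, Fxyd7 and Sox11 below. Calb2, the gene of calretinin, which immature granule cells and hilar mossy cells make, had a log2 fold change of 0.24 ± 0.0703 (limma adjusted p = 0.202), Camk4, a calcium-dependent kinase gene, -0.24 ± 0.0712 (adjusted p = 0.223) and Fxyd7, a regulator of the sodium pump, -0.26 ± 0.0842 (adjusted p = 0.256). In Fxyd7 the genotypes did not overlap, at 2370.4 to 3100.3 normalized counts in cKO and 3167 to 3589 in WT.

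Of 15 transcription factors of granule cell fate and maturation, 0 passed (median log2 fold change 0.0083). Bcl11b, which acts upstream of Dsp and C1ql2 in granule cells, was at 6251 ± 211 normalized counts (SD) in the 4 cKO libraries and 6840.1 ± 293 (SD) in the 5 WT libraries, a log2 fold change of -0.16 ± 0.0451 (limma unadjusted p = 0.00360, adjusted p = 0.197). Sox11, active in newborn neurons, was at -0.13 (adjusted p = 0.368) and Neurod1, which drives granule cell differentiation, at 0.090 (adjusted p = 0.535). Prox1 itself, the factor among the 7 marker genes, had the smallest difference of the 7.

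The partners of 4 of the 7 genes were examined too. Of 12 genes of tryptophan breakdown and use beside Tdo2, 6 were tested and 0 passed (5 above 0, median log2 fold change 0.17). Kyat1, a kynurenine aminotransferase gene, was at 403 ± 29.0 normalized counts (SD) in the 4 cKO libraries and 337 ± 23.0 (SD) in the 5 WT libraries, without overlap between the genotypes (limma unadjusted p = 0.00884, adjusted p = 0.268), Tph2 was at 0.21 on the log2 scale (adjusted p = 0.712) and Kyat3 at 0.13 (adjusted p = 0.754). The 6 genes not tested, among them Ido1, Kmo and Haao, were at a mean under 10 normalized counts. Of 12 desmosome genes beside Dsp, 9 were tested and 0 passed (median log2 fold change -0.039), with Evpl at 0.41 (adjusted p = 0.428), Pkp2 at -0.15 (adjusted p = 0.475) and Dsc3 at 0.46 (adjusted p = 0.630).

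Of 6 relatives of Trpc6, Trpc2 was at 0 in all libraries, and the 5 tested all had a log2 fold change below 0 (-0.19 to -0.029) with 0 passing. Trpc5 was at -0.19 (limma adjusted p = 0.414), Trpc1 at -0.070 (adjusted p = 0.619) and Trpc4 at -0.043 (adjusted p = 0.779). Of 7 calcium-binding protein genes beside Calb1, 5 were tested and 0 passed: Calb2 is given above, Hpca, the gene of hippocalcin, was at -0.19 (adjusted p = 0.297), and Scgn, at 19.8 to 31.0 normalized counts in cKO and 8.98 to 29.3 in WT, at 0.94 (adjusted p = 0.286).

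Pyramidal cells, the other excitatory neurons of the hippocampus, gave the nearest comparison. Of 8 CA1 genes and 8 CA3 and CA2 genes, 0 passed, with a median log2 fold change of -0.057 and -0.055, and 6 of 8 below 0 in each list. The CA1 genes summed to 26472 to 28476 normalized counts in cKO and 28859 to 30126 in WT, without overlap. The CA3 and CA2 genes summed to 8415.5 to 9768 in cKO and 9515 to 10456 in WT, with overlap. Sums without overlap were not particular to CA1. The endothelial genes summed to 7302 to 8047 in cKO and 8188 to 9130 in WT, and the tryptophan genes to 718 to 802 and 643 to 686. A sum weighs genes of high counts most, and of single genes 6.29% did not overlap. Dkk3 was at 6328 ± 258 normalized counts (SD) in the 4 cKO libraries and 7430.25 ± 262 (SD) in the 5 WT libraries, without overlap (log2 fold change -0.20 ± 0.0430, limma adjusted p = 0.0819), Fibcd1 at -0.16 (adjusted p = 0.648), Pcp4 at 0.15 (adjusted p = 0.451) and Coch at -0.19 (adjusted p = 0.479). The difference between these lists and the 7 granule cell genes was not tested. With the mean of these pyramidal cell genes added to the fit, the log2 fold change was 0.56 for Tdo2, 0.23 for Dsp, 0.27 for Lct and 0.030 for Prox1. Of 10 interneuron genes, 6 hilar mossy cell genes and 6 Cajal-Retzius cell genes, 0 passed, with medians of 0.00012, -0.055 and -0.075. Of 9 endothelial genes Flt1 fell, and of 8 astrocyte genes Aqp4 fell and S100b and Gfap rose (limma adjusted p = 0.0417, 0.00206, 0.0141 and 0.0420). The share that passed over all genes was 0.346%, and Flt1 and Gfap lay just under the threshold. Of 8 oligodendrocyte lineage genes and 10 genes of neighbouring regions, 0 passed, with medians of 0.047 and 0.029. The 8 mural cell genes mark a possible other source of Trpc6. Of these, 0 passed and 5 had a limma unadjusted p under 0.05, against 11.3% of all genes, with 4 above 0 and 4 below by log2 fold change. They summed to 10651 to 11996 normalized counts in cKO and 11949.9 to 13713 in WT, and their part in the values of Trpc6 was not tested. Of the 7 choroid plexus genes 0 passed (median 0.66), and with their mean added to the fit Tdo2 was at 0.58.

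**Figure D5:**
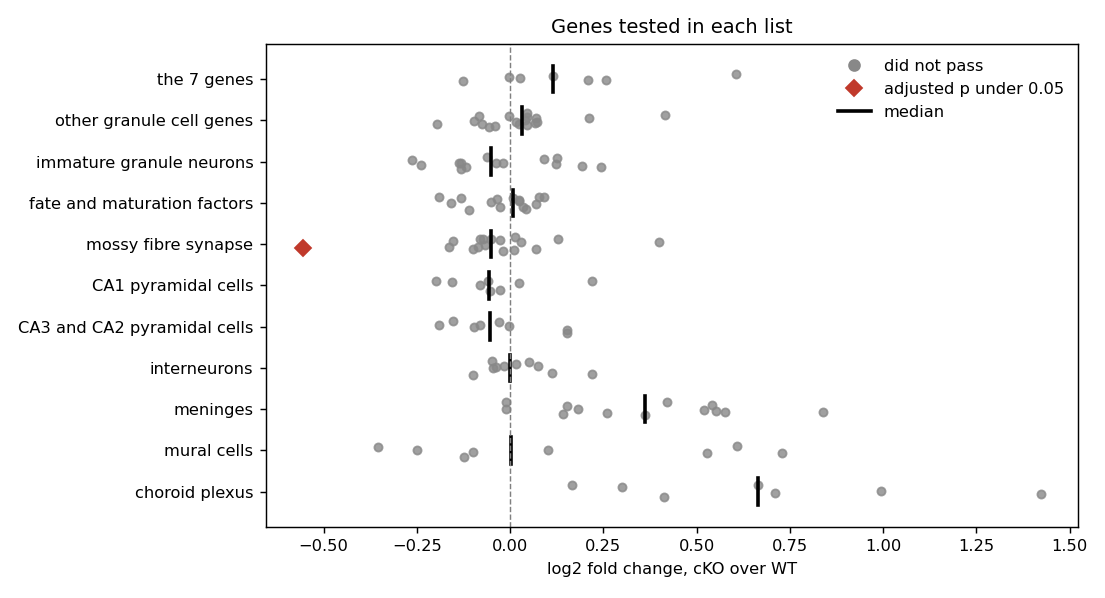
Log2 fold change, cKO over WT, of each gene tested in the lists named at the left, with a black bar at the list's median and red diamonds for genes with an adjusted p under 0.05 (limma). Pdyn, at -0.56 in the mossy fibre list, is the gene past the threshold in these lists, and the medians of the meningeal and choroid plexus lists lie to the right of the others.

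The genes whose pattern over the 9 libraries was most like that of each marker were named by Pearson r among 12637 genes whose mean was 50 or more, as a description: with 9 libraries and so many genes, high values of r arise without any link. Fam98b (r = 0.99), Cops2 (0.96) and Galnt16 (0.96) were most like Prox1, and Gstm7 (0.94), Pfdn1 (0.93) and Cdc16 (0.93) most like C1ql2. Cdadc1 (0.93), Suco (0.93) and Crbn (0.90) were most like Calb1, and Naa25 (0.95), Numb (0.94) and Stx16 (0.94) most like Trpc6. Zhx1 (0.94), Pdgfd (0.94) and Henmt1 (0.91) were most like Dsp, and Arsk (0.97), Tmem104 (0.95) and Mal (0.93) most like Lct. Gli1 (0.93), Prxl2a (0.91) and Cldn10 (0.91) were most like Tdo2. None of the other 6 marker genes was among the 3 of any.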

How the data were processed

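RNA from 9 hippocampi, 1 library each, was sequenced after a directional library preparation, per the labels' protocols. The submitters' processing notes name FastQC 0.12.1, cutadapt 4.4, STAR 2.7.10b, DESeq2 1.41.8 and the GRCm39 build; the sources used here name no counting tool, annotation or strand setting. The deposited values are a signal, gene counts that the authors divided by 1 size factor per library, per the file headers and the values themselves. Each library's value of 1 read was recovered from the steps between low values (0.943 to 1.08), and with it 100% of values were whole within 0.1. All columns of the table belong to the 9 libraries.

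Genes with a mean of at least 10 normalized counts (17036 of 57180) were tested with limma-trend (limma 3.58.1, R 4.3.3) after the transform log2(normalized count + 1), genotype and sex being terms of the fit, and Benjamini-Hochberg adjustment over all of them. A pseudocount of 1 shrinks the fold changes of low genes slightly. Single values were tested by exact permutation of the genotypes over the libraries. The recovered reads were also tested with edgeR 4.0.16 and with DESeq2 1.42.0, beside other pseudocounts, filters, scaling, covariates, single sexes and each library left out. The choroid plexus covariate and the leaving out of libraries from the ratios to Prox1 were chosen after seeing the data. The steps were tested on simulated data, and the share of small changes that they recover is not given here. A gene that did not pass is therefore not shown to be unchanged. Libraries of 1 genotype differed beyond read counting (chi-square per gene of 3.62 to 12.9). The labels do not say which mice were littermates, so p-values measure the spread between these 9 libraries.

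The 21 gene lists, the list of members among them (200 distinct genes in all), were chosen with earlier results of these data known. Named are the 7 members, genes of any list that passed, up to 3 genes of smallest p in each of 10 lists close to the members (the rule as written covered all lists, and the others are given by counts), and the 3 genes most like each member. A gene of these lists that the rule names is not reported here. Exon lengths for levels per kilobase are from GENCODE on GRCm38, and promoters from RefSeq on GRCm38.p6.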

Additional observations from a re-analysis of the deposited data

Results flagged for a closer look

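In 80 groups of libraries examined (the 7 marker genes and the other named genes, by genotype), 5 held a library far from the others by Dixon's test, where chance alone gives about 1 in 20. None of the 5 was in a marker gene. Sox11 was at 2938 normalized counts in cKO replicate 1, against 3250.3 to 3266 in the other cKO libraries. Grik5 was at 8911 in cKO replicate 4, against 10132.5 to 10279.9 in the others. Pcp4 was at 719 in cKO replicate 3, against 805 to 821 in the others. Dkk3 was at 7891 in WT replicate 2, against 7264 to 7365 in the other WT libraries. Coch was at 571 in WT replicate 4, against 635 to 655 in the others. The low libraries of Grik5 and Pcp4 were cKO libraries of genes whose log2 fold change was above 0, and that of Sox11 one of a gene below 0.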

How the results depend on the processing

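Dsp, Tdo2, Calb1 and Lct kept the direction of their log2 fold change under all 23 alternatives, between 0.068 and 0.46, 0.43 and 0.75, 0.048 and 0.17, and 0.074 and 0.27. None of these passed the threshold except Tdo2 with DESeq2 (0.59, adjusted p = 0.0449), which made 1 the number of members called. Prox1, at -0.0022, changed sign with TMM scaling (0.0027), edgeR (0.0045), DESeq2 (0.00083), females only (0.021), the meningeal covariate (0.032) and the pyramidal covariate (0.030), and ran from -0.030 to 0.031 with 1 library left out. C1ql2 was at -0.049 with no sex term and -0.14 in males only (-0.14 to 0.19 with 1 library left out), and Trpc6 at 0.044 in males only (-0.29 to 0.044). The males only and females only fits rest on 1 WT male and 1 cKO female. With sex as a term, leaving out that female (cKO replicate 2) gave the same log2 fold changes as males only. Leaving out that male (WT replicate 1) gave the same as females only, so these are not separate checks. Over all genes, 59 were called, against 200 with DESeq2, 216 with no sex term, 11 in females, 3 in males, 11 with the meningeal covariate, 32 with the pyramidal covariate and 10 to 65 with 1 library left out. Neurod1 was at -0.035 with no sex term and -0.024 in males (-0.024 to 0.20 with 1 left out), and Kyat3 at -0.020 in males (-0.020 to 0.28). The r of Dsp with Lct was -0.075 without 2 libraries, and the log2 ratio of C1ql2 to Prox1 ran from -0.051 to 0.042 with 1 left out. The causes were not tested. No paired analysis was possible because the labels give no replicate numbers shared between the genotypes. For Trpc6 read counting alone gives an SD of 15.5 in cKO and 16.6 in WT, about the 15.6 and 14.4 that were seen. For Tdo2 it gives 13.3 and 11.8, where 21.3 and 29.1 were seen.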
